A study of Mus musculus with 6 samples.

Results

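The genes described here encode proteins of the intestinal cell surface and the lectins that bind its glycans: Gpa33, Cdh17, Ceacam1, Muc13, Dmbt1, Clca3b and the galectins Lgals2, Lgals3, Lgals4 and Lgals9. They are 10 of 19938 named genes measured, each with 1 row on the array, and they were picked because several of them were much lower in intestine with Klf5 deleted, so their own differences are given as a description without a test. The first group was intestines of mouse embryos of genotype Klf5D/D at E14.5, before villi form, in which Klf5 is deleted, and the controls were intestines of E14.5 embryos of genotype Klf5wt/wtShhEGFP/Cre+, which are wild-type for Klf5 and carry the Shh-driven Cre allele. The strain was mixed (part C57Bl/6) in both groups. Each group held 3 arrays, and each array received RNA from a pool of 2 intestines, cut about 1.5 cm anterior to the cecum, so epithelium, mesenchyme, muscle, nerves and serosa were measured together. Cre from the Shh locus acts in the gut epithelium, among other tissues. The values are log2 signals normalised with RMA, a method that makes the overall distributions of the arrays alike.

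Galectins are small lectins that bind galactose-containing sugars on glycoproteins and glycolipids, and they are grouped by how their carbohydrate-binding domains are arranged. Prototype galectins have a lone binding domain, tandem-repeat galectins have a pair joined by a linker, and the chimera galectin, galectin-3, joins its domain to a flexible tail. Enterocytes carry them beside membrane mucins, cadherins and immunoglobulin-type adhesion proteins, and together these molecules make up the glycan coat and the adhesive surface of the epithelium. KLF5 is a zinc-finger transcription factor of epithelia that binds GC-rich and CACCC-type DNA.

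Some facts of the whole series bear on every value. The Klf5 signal was 10.24, 10.49 and 10.34 in the Klf5D/D arrays, against 11.55, 11.74 and 11.77 in the controls. The signal of 26 pan-epithelial markers, summed on the linear scale, was 28490 to 32530 in the Klf5D/D arrays and 54190 to 56140 in the controls, and by limma 25 of the 26 markers were lower and 1, Cdh3, named after its value had been seen, was higher. In bulk tissue, fewer epithelial cells and less RNA of a gene per cell cannot be told apart. The pools also differed in sex. The Y-linked gene Eif2s3y read 10.32, 10.29 and 10.15 in the Klf5D/D arrays, against 5.38, 9.32 and 8.84 in the controls. Scaled from Y-linked signal, the male share was 95.2% to 103% in the Klf5D/D pools, against 0%, 46.7% and 41.5% in control replicates 1, 2 and 3. Sex and genotype thus went largely together, and no control pool reached the male share of any Klf5D/D pool. A fit with the male share as a covariate leans on the spread among the controls and cannot tell sex and genotype apart. Correlations over all rows were 0.994 to 0.997 within a group and 0.989 to 0.993 between groups. The labels do not say that the pools came from separate litters, so errors measure the spread between these pools. No array carried a call of detection.

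Of the 4 galectins, the tandem-repeat member Lgals4 stood lowest against its controls and the chimera member Lgals3 was the only one of the 10 genes whose groups overlapped. Lgals4 encodes galectin-4, a lectin of the gut epithelium that carries glycoproteins to the apical membrane in lipid rafts. It read 8.01, 8.77 and 8.79 in the Klf5D/D arrays, against 12.72, 12.82 and 12.63 in the controls. The nearest arrays of the 2 groups were 3.84 apart on the log2 scale. The log2 difference was −4.20 (SE 0.20, n = 3 per group), which left 5.45% of the control signal. Of all 19938 genes, 1 had a lower value, Xist, the RNA of the inactive X chromosome. Galectin-6, encoded by a near copy of Lgals4 that some mouse strains carry, had no row of its own, and with a mixed strain its RNA cannot be told apart from that of Lgals4 on this row.

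Lgals9 encodes galectin-9, also of the tandem-repeat type, which epithelia and immune cells make and which binds TIM-3, a surface protein of T cells. Its signal was 9.13, 8.98 and 9.35 in the Klf5D/D arrays, against 10.77, 10.73 and 10.53 in the controls. The groups were apart by 1.18, and the log2 difference was −1.52 (SE 0.10, n = 3 per group), leaving 34.8%. The prototype member Lgals2, a galectin of the gastrointestinal epithelium, read 11.06, 11.21 and 11.55 in the Klf5D/D arrays, against 12.14, 12.48 and 12.18 in the controls. Its groups were also apart, by 0.59, with a log2 difference of −0.99 (SE 0.14, n = 3 per group) and 50.3% of the control signal left. Lgals3, which encodes galectin-3, a lectin of macrophages and many epithelia, read 7.95, 8.03 and 7.86 in the Klf5D/D arrays, against 8.05, 8.04 and 7.97 in the controls. Its highest Klf5D/D array was above its lowest control array, and its log2 difference was −0.07 (SE 0.06, n = 3 per group). Of 17 measured leukocyte and macrophage markers, 2 were lower and 0 higher by limma, with summed signals of 6329 to 7877 in the Klf5D/D arrays and 7578 to 8544 in the controls. Their part in the Lgals3 and Lgals9 values was not tested.

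**Figure D1:**
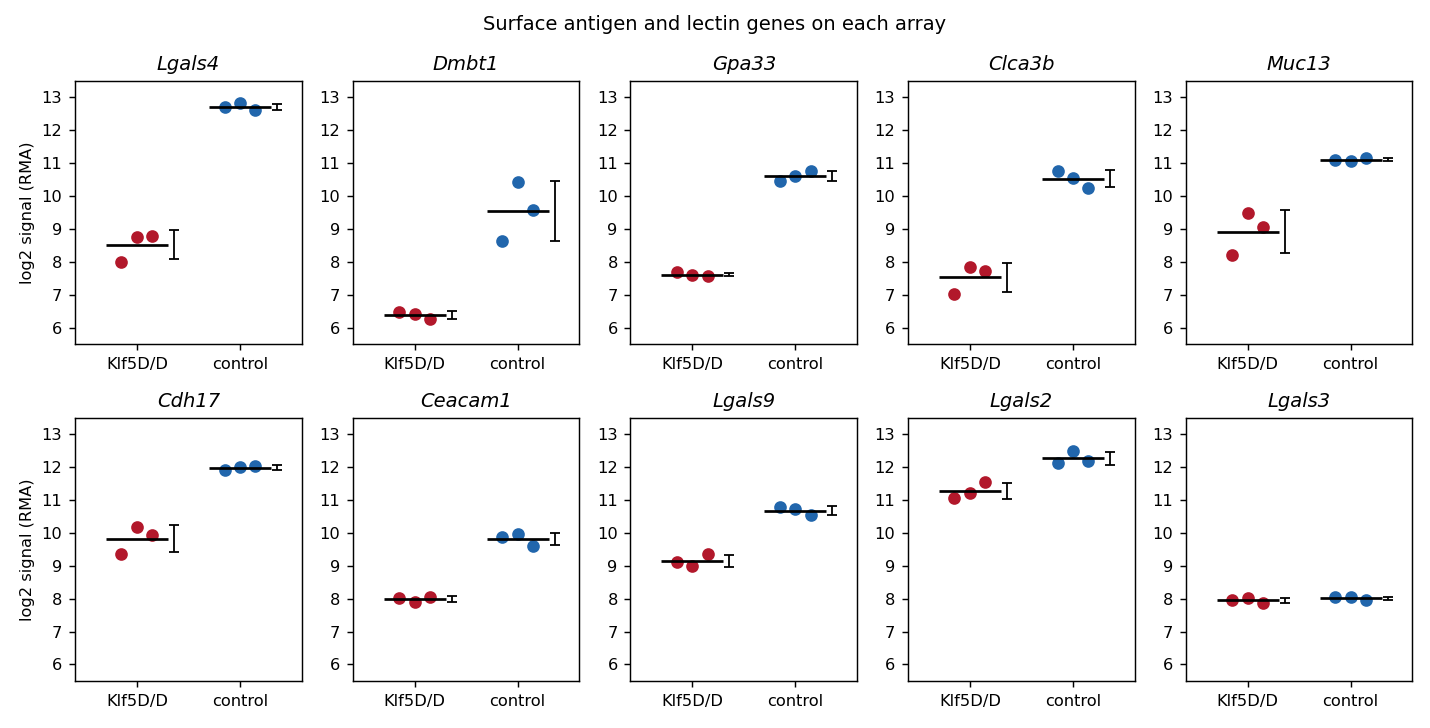
Log2 signal (RMA) of the 10 genes on each array, with Klf5D/D pools left (red) and controls right (blue). Points are the 3 arrays of each group, lines are means and bars are SD; only Lgals3 has overlapping groups, and Lgals4 has the widest gap, 3.84 on the log2 scale.

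The DNA just upstream of these genes is shown for 4 of them that span the range of differences, Lgals4, Gpa33, Lgals2 and Lgals3. Each line gives 250 bases that end at the annotated start, 5′ to 3′ on the strand of the gene, from RefSeq (GRCm38.p6). Lgals4 lies at chr7:28833544-28833793 on the plus strand, Gpa33 at chr1:166129971-166130220 on the plus strand, Lgals2 at chr15:78855530-78855779 on the minus strand and Lgals3 at chr14:47373610-47373859 on the plus strand. Capitals mark matches, on either strand, to letters of the KLF type (CCNCACC or CCCGCCC), the HNF4 type (CAAAGTC), the CDX type (TTTATNG), the GATA type (GATAAG) and the ETS type (AGGAAGT).
Lgals4: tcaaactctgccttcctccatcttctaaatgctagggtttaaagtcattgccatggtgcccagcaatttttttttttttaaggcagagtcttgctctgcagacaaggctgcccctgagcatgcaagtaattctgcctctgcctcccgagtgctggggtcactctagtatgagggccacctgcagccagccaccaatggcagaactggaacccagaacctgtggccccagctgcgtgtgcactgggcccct
Gpa33: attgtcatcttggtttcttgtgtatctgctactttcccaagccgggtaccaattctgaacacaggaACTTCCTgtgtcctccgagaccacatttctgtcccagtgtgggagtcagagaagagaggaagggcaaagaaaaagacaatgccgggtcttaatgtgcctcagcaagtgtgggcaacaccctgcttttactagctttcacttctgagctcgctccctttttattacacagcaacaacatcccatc
Lgals2: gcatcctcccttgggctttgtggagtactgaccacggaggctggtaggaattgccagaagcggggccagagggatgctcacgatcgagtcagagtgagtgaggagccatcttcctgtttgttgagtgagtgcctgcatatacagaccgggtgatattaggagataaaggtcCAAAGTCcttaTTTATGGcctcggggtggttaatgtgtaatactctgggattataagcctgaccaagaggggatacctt
Lgals3: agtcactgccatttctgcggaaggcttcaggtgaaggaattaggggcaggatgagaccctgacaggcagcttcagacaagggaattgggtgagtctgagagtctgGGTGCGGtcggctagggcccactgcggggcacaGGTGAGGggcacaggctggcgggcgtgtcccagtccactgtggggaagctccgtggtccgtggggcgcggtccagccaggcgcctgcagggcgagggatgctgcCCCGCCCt
The window of Lgals4 held none of these letters. That of Gpa33 held the ETS-type letters from base −184 relative to the start, found in 7.69% of the 32851 promoters in the table. The window of Lgals2 held CAAAGTC from base −79 and TTTATNG from base −68, with 4 bases between them, and these letters occur in 3.84% and 9.81% of all promoters. The window of Lgals3, the gene with overlapping groups, held the KLF-type letters 3 times, from bases −145, −112 and −8. Over the 9 promoters listed for 8 of the 10 genes, CCNCACC was found in 3 (Lgals3, Lgals9 and 1 start of Muc13) and CCCGCCC in 1 (Lgals3), against 26.5% and 23.4% of all promoters. A match is a description of letters, not a binding site.

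Among the adhesion proteins of the epithelial membrane, all 3 genes were lower in every Klf5D/D array than in any control. Gpa33 encodes the A33 antigen, an immunoglobulin-type membrane protein restricted largely to intestinal epithelium. It read 7.68, 7.60 and 7.58 in the Klf5D/D arrays, against 10.46, 10.61 and 10.78 in the controls. The arrays of each group lay close together, and the difference was −2.999 on the log2 scale with an SE of 0.08 (n = 3 per group), leaving 12.5% of the control signal. Cdh17 encodes LI-cadherin, a calcium-dependent adhesion protein of intestinal epithelium with more extracellular repeats than classical cadherins. Its signal was 9.37, 10.16 and 9.93 in the Klf5D/D arrays, against 11.90, 11.997 and 12.04 in the controls. The log2 difference was −2.16 (SE 0.18, n = 3 per group), and Klf5D/D replicate 1 was the lowest array. Ceacam1, an immunoglobulin-type adhesion receptor of epithelia and leukocytes, read 8.01, 7.89 and 8.05 in the Klf5D/D arrays, against 9.88, 9.97 and 9.59 in the controls. Its arrays lay close together within each group, and the log2 difference was −1.83 (SE 0.10, n = 3 per group), with 28.1% left.

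The 3 genes of the apical coat and its secretions were each lower by more than 4-fold. Muc13 encodes a transmembrane mucin of the apical glycocalyx. It read 8.21, 9.49 and 9.05 in the Klf5D/D arrays, against 11.09, 11.08 and 11.17 in the controls. The controls were within a narrow band and the Klf5D/D arrays were widely spread (SD 0.65, against 0.05 in the controls, n = 3 each), and the log2 difference was −2.20 (SE 0.28). Clca3b belongs to the CLCA family of secreted proteins linked to calcium-activated chloride currents and mucus. It read 7.03, 7.85 and 7.71 in the Klf5D/D arrays, against 10.77, 10.56 and 10.26 in the controls, a log2 difference of −2.998 (SE 0.22, n = 3 per group). Dmbt1 encodes a secreted glycoprotein with scavenger receptor domains that binds bacteria at mucosal surfaces. It read 6.48, 6.43 and 6.26 in the Klf5D/D arrays, against 8.62, 10.44 and 9.59 in the controls. Here the spread was in the controls (SD 0.11 in the Klf5D/D arrays, against 0.91 in the controls, n = 3 each), and the lowest control was the pool with the lowest Y-linked signal. The log2 difference of Dmbt1 was −3.16 (SE 0.39, n = 3 per group), and −5.47 (SE 0.42) with the male share as a covariate. The covariate value extends the controls to a male share that no control pool had.

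Across the 10 genes the median log2 difference was −2.18, and over all 19938 genes it was 0.02. By limma with Benjamini-Hochberg adjustment over all genes, 9 of the 10 were lower, where 8.58% of all genes were. For 9 of the 10 the groups did not overlap, with the Klf5D/D arrays lower, which held for 15.9% of all genes. Both counts follow from how the genes were picked. Klf5D/D replicate 1 was the lowest Klf5D/D array for 5 genes, Lgals4, Lgals2, Muc13, Cdh17 and Clca3b, replicate 2 for Lgals9 and Ceacam1, and replicate 3 for Gpa33, Dmbt1 and Lgals3. In replicate 1 the mean of the pan-epithelial markers was also lowest, at 9.61, against 9.80 and 9.84 in the other Klf5D/D arrays and 10.63, 10.66 and 10.69 in the controls. The part of that lower epithelial signal in the spread of the 5 genes was not tested. Leaving out any array in turn kept the differences between −4.33 and −3.94 for Lgals4, between −2.49 and −1.85 for Muc13 and between −3.62 and −2.72 for Dmbt1.

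Set against the epithelial markers of the same array, most of the genes remained lower, and Lgals2 and Lgals3 stood apart from the others. The mean of the 26 markers differed by −0.91 on the log2 scale, and single markers ranged from −3.28 for Elf3 to 0.61 for Cdh3. After that mean was subtracted in each array, Lgals4 differed by −3.29, Dmbt1 by −2.26, Gpa33 by −2.09 and Clca3b by −2.09. The differences were −1.29 for Muc13, −1.26 for Cdh17, −0.93 for Ceacam1 and −0.62 for Lgals9. For these 8 genes the groups still did not overlap. The share of all genes with groups apart after this subtraction was not computed, so this count has no background to be read against. Lgals2 was at −0.08 with overlapping groups, relative values of 1.45, 1.41 and 1.71 in the Klf5D/D arrays against 1.51, 1.82 and 1.49 in the controls. Its signal was lower by about as much as that of the markers. Lgals3 was at 0.83, above the markers in relative terms, with −1.66, −1.77 and −1.98 in the Klf5D/D arrays against −2.58, −2.62 and −2.72 in the controls. The subtraction raises the difference of every gene by the same amount, so a gene with no difference as measured lies above 0. Lgals1 and Lgals7, at 0.04 and −0.02 as measured, were at 0.95 and 0.89 in relative terms, slightly above Lgals3. The median relative difference over the 10 genes was −1.27, and −1.04 when the median of the markers was subtracted in place of the mean. Which cells gave the signal was not measured, and a gene used by other cell types as well need not follow these markers.

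**Figure D2:**
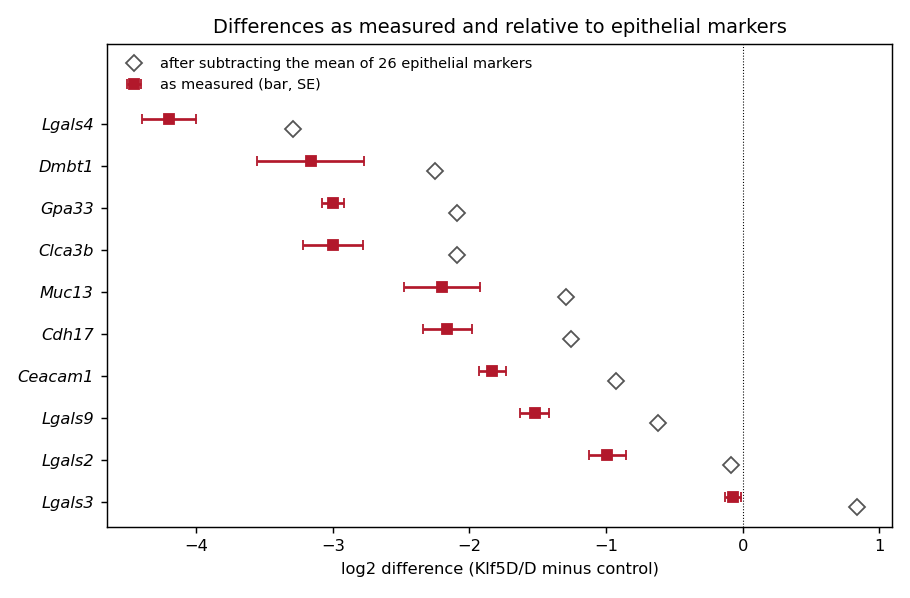
Log2 difference, Klf5D/D minus control, of each gene as measured (red squares, bars SE, n = 3 arrays per group) and after the mean of 26 pan-epithelial markers was subtracted in each array (open diamonds). Lgals4 moves to −3.29 and remains the lowest, while Lgals2 comes to −0.08 and Lgals3 to 0.83. The subtraction raises every gene by the same amount, so a gene with no difference as measured lies above 0.

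The relatives of these genes, which were not used in picking them, passed the test in a minority of cases. Their lists were chosen with earlier results of these data known, so the shares below are a description. Of 93 measured genes in 8 lists of relatives and other surface or lectin genes, 23 fell and 6 rose by limma at an adjusted p of 0.05, and the median log2 difference was −0.01, against 0.02 over all genes. Falls made up 24.7% of them, where 8.58% of all genes fell and 8.95% rose, or 17.5% in either direction. Of the 23 falls, 9 were in the list of other epithelial surface antigens, which includes the pan-epithelial markers Epcam and Cdh1. Values relative to the pan-epithelial markers, whose mean differed by −0.91, are given below for the named genes that fell. Above 0, the fall was smaller than that of the markers. With the male share as a covariate, 1 of the 93 passed, Lgals3bp (log2 difference −1.65, adjusted p = 0.0333 by limma). Over all 19938 genes that fit left 84 called in place of 3496, with standard errors 2.62 times as large in the median. Without control replicate 2, 3 of the 93 rose in place of 6, and over all genes 868 rose in place of 1785.

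Among 6 other measured galectin genes, 1 fell. Lgals12, a tandem-repeat galectin best known from fat cells, read 6.76, 6.90 and 6.69 in the Klf5D/D arrays, against 7.67, 7.84 and 7.71 in the controls (log2 difference −0.95, SE 0.07, adjusted p = 0.00019 by limma). Relative to the pan-epithelial markers Lgals12 was at −0.05. The prototype gene Lgals1, a galectin of mesenchyme and muscle, read 13.29, 13.26 and 13.32 in the Klf5D/D arrays, against 13.24, 13.27 and 13.23 in the controls, a log2 difference of 0.04 (SE 0.04, adjusted p = 0.563). The groups of Lgals1 overlapped. The tandem-repeat gene Lgals8 was at −0.18 (SE 0.06, adjusted p = 0.0698), and Lgalsl at 0.02 (SE 0.04, adjusted p = 0.79). Lgals7, which lies beside Lgals4 on the chromosome and is known from stratified epithelia, was at −0.02 (SE 0.04).

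Of 14 other CEACAM genes, 1 fell and 0 rose, and the 13 that did not pass lay between −0.09 and 0.21. Their array values ranged from 4.473 to 8.061, where the median over all rows was 7.81 to 7.89. At such signals a lack of difference cannot tell an unchanged gene from one that was not expressed. Ceacam2, the closest neighbour of Ceacam1 and a similar gene of mouse, read 7.11, 7.25 and 7.40 in the Klf5D/D arrays, against 7.04, 6.99 and 7.10 in the controls. Its log2 difference was 0.21 (SE 0.08, adjusted p = 0.114 by limma), opposite in sign to that of Ceacam1. Ceacam18 fell by 0.40 (SE 0.10, adjusted p = 0.0357), a call kept on leaving out 2 of the 6 arrays and lost on leaving out the other 4. Relative to the pan-epithelial markers Ceacam18 was at 0.51. Ceacam19 was at 0.06 (SE 0.05) and Ceacam14 at −0.09 (SE 0.08). Whether probes of Ceacam1 also read Ceacam2 was not analysed here.

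Of 6 other CLCA genes, 1 fell and 0 rose. Their array values, from 5.165 to 8.113, were as dim as those of the CEACAM genes, with the same limit. Clca1, a product of goblet cells, read 6.89, 6.94 and 6.70 in the Klf5D/D arrays, against 7.54, 7.53 and 7.22 in the controls (log2 difference −0.58, SE 0.10, adjusted p = 0.00852 by limma). Relative to the pan-epithelial markers Clca1 was at 0.32. The genes on either side of Clca3b did not pass the test. Clca3a1 read 8.11, 7.30 and 7.56 in the Klf5D/D arrays, against 7.53, 7.59 and 7.50 in the controls (log2 difference 0.12, SE 0.18). Klf5D/D replicate 1, the lowest array for Clca3b, was the highest for Clca3a1, and without it Clca3a1 was at −0.11. Clca3a2 was at −0.02 (SE 0.13), Clca4b at −0.06 (SE 0.05) and Clca2 at 0.16 (SE 0.05, adjusted p = 0.0641). These genes are close copies whose probes may read more than 1 of them.

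**Figure D3:**
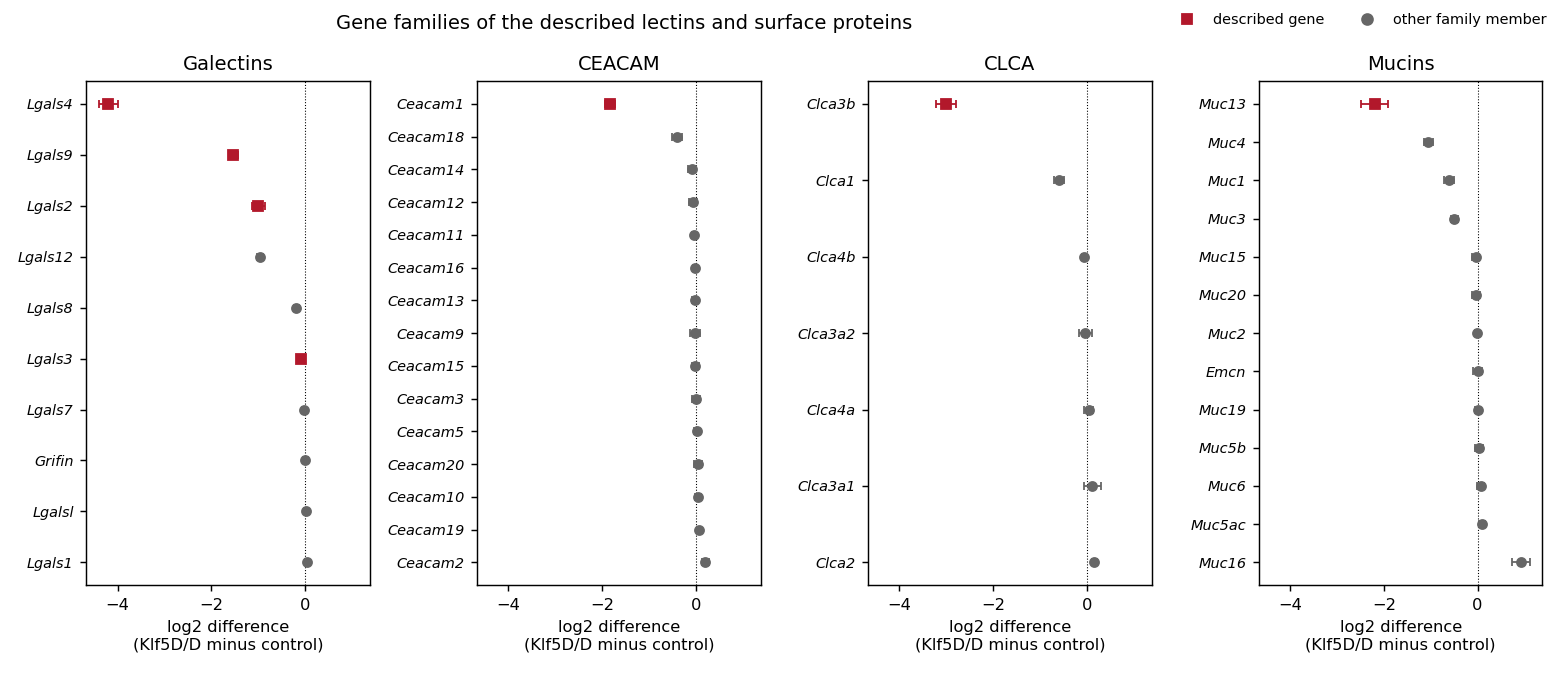
Log2 difference, Klf5D/D minus control, for the described genes (red squares) and the other measured members of the galectin, CEACAM, CLCA and mucin families (grey circles), with bars of SE from limma (n = 3 arrays per group). In each family the described genes Lgals4, Ceacam1, Clca3b and Muc13 have the lowest value, and Muc16 at 0.92 has the highest of all genes shown.

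Of 12 other mucin genes, 3 fell and 1 rose. Muc4, Muc1, Muc3 and Muc16, the 4 that passed the test, encode membrane mucins. Other membrane mucins, named after their values had been seen, did not pass it, Muc15 and Muc20 at −0.04 each (SE 0.07 and 0.09) and Emcn at 0.003 (SE 0.09). Array values were at most 5.67 for Muc15 and 7.08 for Muc20, with the limit given for the dim CEACAM genes. Muc4 read 6.74, 7.03 and 6.92 in the Klf5D/D arrays, against 7.92, 8.11 and 7.79 in the controls (log2 difference −1.05, SE 0.10, adjusted p = 0.000601 by limma). Muc1 fell by 0.60 (SE 0.11, adjusted p = 0.00919) and Muc3 by 0.49 (SE 0.07, adjusted p = 0.00385), and each of these 3 calls was kept when any of the 6 arrays was left out. Relative to the pan-epithelial markers, Muc4 was at −0.14, Muc1 at 0.31 and Muc3 at 0.41. Muc16, a membrane mucin of mesothelium, rose, with 8.22, 8.02 and 7.56 in the Klf5D/D arrays, against 7.25, 7.08 and 6.70 in the controls (log2 difference 0.92, SE 0.19, adjusted p = 0.0164). Leaving out control replicate 2 or 3 ended this call (adjusted p = 0.0505 and 0.0525). Of 8 mesothelial markers 6 rose and 2 fell, Msln (log2 difference −0.52) and Krt19 (−1.525). Krt19 is also among the pan-epithelial markers and was the brightest of the 8 in the controls. Summed signals of the 8, with Krt19 included, were 9465 to 11910 in the Klf5D/D arrays and 8547 to 10060 in the controls. The part of these markers in the Muc16 value was not tested.

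Of 11 measured scavenger receptor cysteine-rich genes, the class of Dmbt1, 2 fell and 0 rose. Lgals3bp encodes a secreted glycoprotein with such a domain that binds galectin-3. It read 10.21, 10.14 and 10.38 in the Klf5D/D arrays, against 12.07, 12.06 and 11.95 in the controls, and the log2 difference was −1.78 (SE 0.07, adjusted p = 1.53e-05 by limma). This partner of galectin-3 fell, whereas the groups of Lgals3 itself overlapped. Prss12, a secreted protease gene, fell by 0.31 (SE 0.08, adjusted p = 0.0345), a call kept on leaving out 2 of the 6 arrays and lost on leaving out the other 4. With the male share as a covariate Prss12 was at −0.034 (adjusted p = 0.949). Relative to the pan-epithelial markers Lgals3bp was at −0.87 and Prss12 at 0.60. Ssc5d and Scara5 were at 0.15 (SE 0.05, adjusted p = 0.0984) and 0.10 (SE 0.06, adjusted p = 0.321). Of 11 secreted gut lectins, 1 fell and 1 rose. Reg4, a secreted C-type lectin of enteroendocrine and goblet lineages, read 6.46, 6.54 and 6.66 in the Klf5D/D arrays, against 8.44, 8.07 and 7.72 in the controls (log2 difference −1.52, SE 0.16, adjusted p = 0.00102). With the male share as a covariate Reg4 was at −0.69 (adjusted p = 0.329), and relative to the pan-epithelial markers at −0.62. The pentraxin gene Mptx1 rose by 0.36 (SE 0.07, adjusted p = 0.0132), with array values of at most 6.15. The other 9 lectins lay between the −0.12 of Reg1 (SE 0.07, adjusted p = 0.275) and the 0.13 of the intelectin-1 gene Itln1 (SE 0.07, adjusted p = 0.269). Their array values, from 4.855 to 7.088, were as dim as those of the CEACAM genes, with the same limit.

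Of 14 immunoglobulin-type surface genes related to Gpa33, 5 fell and 2 rose. Vsig10 fell by 0.56 (SE 0.06, adjusted p = 0.00107 by limma), and was at −0.297 (adjusted p = 0.00879) with the mean of all its probe sets. F11r and Cxadr, which encode junction proteins of epithelia, fell by 0.34 (SE 0.06, adjusted p = 0.00862) and 0.36 (SE 0.07, adjusted p = 0.0109). Igsf11 rose by 0.34 (SE 0.06, adjusted p = 0.00631). Of 19 other epithelial surface antigens, 9 fell and 2 rose. The microvillus cadherin gene Cdhr5 read 7.51, 8.01 and 7.85 in the Klf5D/D arrays, against 9.85, 9.90 and 9.78 in the controls (log2 difference −2.05, SE 0.12, adjusted p = 6.42e-05). Cdhr2, whose product pairs with that of Cdhr5 between microvilli, fell by 1.85 (SE 0.13, adjusted p = 0.000162). The tetraspanin gene Tspan8 fell by 1.57 (SE 0.13) and Plet1 by 1.13 (SE 0.09). The general adhesion genes Cdh1 (E-cadherin) and Epcam fell by 0.94 (SE 0.10, adjusted p = 0.00087) and 0.61 (SE 0.07, adjusted p = 0.00187). Relative to the pan-epithelial markers, F11r was at 0.56, Cxadr at 0.54, Vsig10 at 0.34 and Epcam at 0.30. Cdh1 was at −0.03, Plet1 at −0.23, Tspan8 at −0.66, Cdhr2 at −0.95 and Cdhr5 at −1.15 by the same measure. Epcam and Cdh1 are among the markers, so their relative values are partly a comparison with themselves.

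The nearest measured gene on either side of each of the 10 gives 20 neighbours, a set added after the data were seen. Of these, 1 fell and 3 rose by limma, so 4 of 20 passed the test, a share near the 17.5% of all genes that did (8.58% lower and 8.95% higher). Their median log2 difference was −0.01 and they lay between −0.39 and 0.56. The fall was that of Ech1 beside Lgals4 (−0.39, SE 0.05, adjusted p = 0.00274), a mitochondrial enzyme gene. On the other side of Lgals4, Lgals7 read 7.68, 7.71 and 7.66 in the Klf5D/D arrays, against 7.66, 7.70 and 7.74 in the controls. The 3 genes that rose were Gem and Pdp1 on either side of Cdh17 (0.35 each, SE 0.10 and 0.06) and Heg1 beside Muc13 (0.27, SE 0.06).

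**Figure D4:**
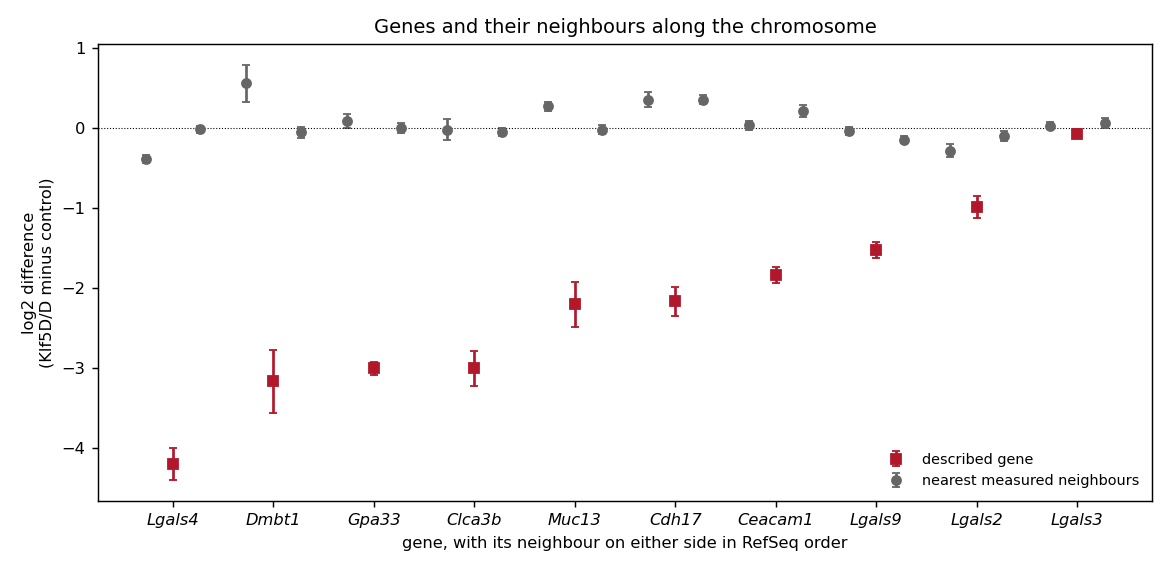
Log2 difference, Klf5D/D minus control, of each described gene (red squares) and of the nearest measured gene on each side of it in RefSeq order (grey circles), with bars of SE from limma (n = 3 arrays per group). The neighbours lie between −0.39 and 0.56.

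Genes outside the group were also ranked by how like their array values were, as the root mean square difference over the 6 arrays of each gene's deviation from its control mean. Nearest to Lgals4 was Cps1, the carbamoyl phosphate synthetase of citrulline synthesis, at 0.16 log2 units, and the next, Kcne3 and Eps8l3, were at 0.56 and 0.63. Nearest to Gpa33 were Fbp2 (0.11), Trim31 (0.17) and Fabp2 (0.18). Cdh17 was nearest to Ndrg1 (0.11 units), Degs2 (0.12) and Cdhr5 (0.13), and nearest to Muc13 were Ndrg1 (0.23), Tm4sf20 (0.25) and Degs2 (0.25). Nearest to Ceacam1 were Lgals3bp (0.10), Serpinb1a (0.10) and Myrfl (0.12). Nearest to Lgals9 were Tmem238 (0.07), the keratin gene Krt19 (0.12) and Tmem184a (0.14). Clca3b was nearest to the ETS factor gene Elf3 (0.26), Trim31 (0.29) and Lypd8 (0.31). Elf3 and Krt19 are also among the pan-epithelial markers. Dmbt1 had no gene nearer than Trim31 (0.46), with Fbp2 and Kcne3 at 0.50 each, and its values differed most among the controls. These measures describe likeness over the same 6 arrays and follow mainly from the size of each difference.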

How the data were processed

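Total RNA of 6 pools was measured on the Affymetrix Mouse Gene 1.0 ST platform. The deposited log2 signals came, per the submitters' processing notes, from RMA in Affymetrix Expression Console (version 1.1) and ranged from 3.51 to 14.3. The sources used here do not give build, annotation or filters. Arrays have no read depth, their number limits the precision, and folds of dim genes are understated. Groups and replicate numbers came from the sample titles. Of 35557 rows, 21789 had 1 gene symbol in the platform annotation, 1621 had several and 12147 had none. RefSeq of GRCm38.p6 gave current symbols by gene ID (21698 rows matched), and the brightest row was kept for each of 19938 genes, with no filter on level.

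The fit was lmFit and eBayes of limma 3.58.1 (R 4.3.3), mutant minus control, and p was adjusted by Benjamini-Hochberg across 19938 genes, with a cutoff of 0.05. Standard errors come from the moderated variance. The smallest exact two-sided permutation p for 3 arrays against 3 is 0.1. The pipeline was tested on simulated data. The 10 genes, the 8 related lists (104 genes, 93 measured) and the 6 marker lists were chosen with earlier results of these data known. Named were the 10 genes, the 4 genes of smallest p in each related list, Epcam, Cdh1 and, for differences of at least 1 on the log2 scale, the 3 genes with the nearest array values. Others are marked as chosen later or stand as neighbours. Naming by protein identity was not done. The male share of a pool is the mean over Eif2s3y, Kdm5d and Uty of linear signal, where the lowest array sets 0% and the average of the Klf5D/D arrays sets 100%. Motifs were searched in 250 bases upstream of each RefSeq start. Alternatives were each array left out, a block for the replicate number, quantile normalization, median centring, a filter on the dimmest 50% of genes, a robust variance trend, array weights, averaged probe sets and the male share as a covariate.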

Additional observations from a re-analysis of the deposited data

How the results depend on the processing

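The log2 differences of the 10 genes kept their sign under each alternative run, and those of Lgals4, Lgals3, Muc13, Cdh17 and Ceacam1 moved by less than the spread between replicates under each. With the male share as a covariate, Gpa33 was at −3.36, Dmbt1 at −5.47, Lgals2 at −1.21, Lgals9 at −1.26 and Clca3b at −2.40. The lowest 50% of genes left out removed Lgals3 and Dmbt1. That covariate left 84 genes called over all genes (4 higher, 80 lower) in place of 3496 (1785 higher, 1711 lower), and 1 related gene (0 higher, 1 lower) in place of 29. Its standard errors were 2.62 times as large in the median over all genes. With the replicate number as a block, 2008 genes were called (900 higher, 1108 lower) and 23 related genes. Same-numbered arrays of the 2 groups correlated at −0.145, −0.274 and −0.0315 in their deviations from group means. These values gave no sign that the numbers pair the samples, but with 3 arrays per group they cannot exclude it. Leaving out each array in turn gave 2000 to 2757 genes (868 to 1363 higher, 1132 to 1394 lower), lowest without control replicate 2, and 21 to 26 related genes (3 to 6 higher, 17 to 20 lower). The related genes higher numbered 3 without control replicate 2. With the lowest 50% of genes left out, 18 related genes were called (12 lower), with fewer of them tested. The median difference relative to the epithelial markers was −1.04 with their median subtracted, and −1.48 to −1.06 with an array left out. Lgals8 was at 0.021 with the male share as a covariate and Clca3a1 at −0.11 without Klf5D/D replicate 1 (−0.11 to 0.30 over the 6 arrays left out), each of opposite sign to its value over all arrays. In the 100 bases upstream, CCNCACC was found in 1 promoter, CAAAGTC in 1 and AGGAAGT in 0. The cause of these changes was not tested.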
